A study of Mus musculus with 30 samples.

Results

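Lung epithelial and endothelial genes were followed as a measure of host lung RNA in sorted 4T1 mammary carcinoma cells. The set held 34 of the 49315 genes in the count table, chosen by gene symbol: 19 mark lung epithelium and 15 mark endothelium. All 34 symbols were found once, and the lists are described separately throughout. The 30 libraries came from 4T1 cells carrying the tdTomato reporter, a line of BALB/c origin, grown in female BALB/c mice, which have an intact immune system, or in female NSG mice, an immunodeficient strain. The 6 groups had 5 libraries each. BALB/c and NSG tumour libraries came from the mammary fat pad after implantation of 200000 cells, at days 21 and 22 in BALB/c and at day 10 in NSG mice. BALB/c and NSG DTC libraries came from the lung 7 days after 500000 cells were given by the tail vein, and the labels do not expand that term. Macro-met libraries came from the lung after the same injection, at days 21 and 23 in BALB/c and at days 19 and 20 in NSG mice. Every group was sorted the same way, as single live CD45-negative tdTomato-positive events, so a host epithelial or endothelial cell was not meant to be in any library. In bulk libraries such as these, fewer host cells and less RNA per host cell cannot be told apart. Whether a group's libraries came from separate animals is not stated in the labels, so the p-values below measure the spread between these samples, which may be technical.

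Gas exchange takes place across alveolar type 1 cells, which are thin and flat, while alveolar type 2 cells make surfactant, a film of lipid and protein that keeps the alveoli open. The airways are lined by club cells, which secrete secretoglobins and carry detoxifying enzymes, and by ciliated cells, which move mucus. Lung capillary endothelium lies against the type 1 cells, and cells arriving in the lung by the blood meet it first.

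Sequence upstream of 3 members is shown because they were at or near 0 in the tumours and rose in lung libraries of both strains, and because NKX2-1, the transcription factor that is itself a member, is known to act at surfactant promoters. RefSeq (GRCm38.p6) held a promoter entry for 20 of the 34 members. Sftpb lies at chr6:72304610-72314371 and Sftpa1 at chr14:41131782-41136452, both on the plus strand, and Cldn5 lies at chr16:18776847-18778262, also on the plus strand. The windows below end just before the gene's start, at chr6:72304360-72304609 for Sftpb, chr14:41131538-41131781 for Sftpa1 and chr16:18776597-18776846 for Cldn5. Capitals mark the letters CTCAAG, a core of the kind NKX2-1 binds, and AGGAAG, a core of the kind ETS factors bind, each searched on both strands.
Sftpb: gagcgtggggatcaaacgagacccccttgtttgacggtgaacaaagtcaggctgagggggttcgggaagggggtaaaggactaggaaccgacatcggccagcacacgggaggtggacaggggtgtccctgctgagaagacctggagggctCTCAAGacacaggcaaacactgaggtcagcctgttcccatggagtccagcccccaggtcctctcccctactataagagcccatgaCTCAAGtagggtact
Sftpa1: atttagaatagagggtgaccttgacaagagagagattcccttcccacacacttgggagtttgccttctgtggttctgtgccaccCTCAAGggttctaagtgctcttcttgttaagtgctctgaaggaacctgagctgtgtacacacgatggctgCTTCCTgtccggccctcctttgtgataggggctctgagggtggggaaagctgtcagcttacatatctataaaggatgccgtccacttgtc
Cldn5: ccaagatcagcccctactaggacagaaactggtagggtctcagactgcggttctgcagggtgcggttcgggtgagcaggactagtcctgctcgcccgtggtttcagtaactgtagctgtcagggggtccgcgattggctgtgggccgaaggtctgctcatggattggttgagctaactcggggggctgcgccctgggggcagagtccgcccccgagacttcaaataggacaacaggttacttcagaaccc
Sftpb held CTCAAG at 100 and at 15 bases before its start, and Sftpa1 held it at 166 bases, with AGGAAG on the other strand at 96 bases. The Cldn5 window held neither. Over all 27025 promoter windows, 15.2% held CTCAAG and 32.3% held AGGAAG. Among the members with an entry, CTCAAG was in 3 of 12 epithelium windows (Sftpb, Sftpa1 and Hopx) and in 1 of 8 endothelium windows (Emcn). AGGAAG was in 6 of 12 epithelium and 5 of 8 endothelium windows. A match is a description of these letters and no measure of binding.

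Total counts ran from 29832098 to 65621525 per library, and 17517 to 22187 genes had at least 1 count. Markers of mammary carcinoma epithelium, led by Krt8 and Krt18, summed to 4966 to 11170 CPM, counts scaled to the library total, and were above the summed members in every library. The 2 DTC libraries from BALB/c mice numbered 1 and 2, called lung-rich below, stood apart from the other 3 of their group, with summed epithelium members of 4001, 1770, 281, 407 and 308 CPM over replicates 1 to 5 and summed endothelium members of 661, 252, 52.2, 64.1 and 49.2 CPM. Most counts and fold changes that rest on the BALB/c DTC group are therefore given with and without those 2 libraries, in a fit that tested 19038 genes. Those 2 were left out as the highest of their group in the epithelium members, and no other group was trimmed. Values without them lean toward lower BALB/c DTC levels, and their p-values do not allow for that choice. The 4 libraries with the fewest genes detected (BALB/c tumour replicate 4, NSG tumour replicates 2 and 3, NSG macro-met replicate 3) also had the highest skeletal muscle marker sums, 159.7 to 859.8 CPM, and their part in the results was not tested beyond leaving them out.

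Few members were at substantial levels in the fat pad tumours. A tumour library had at least 1 count for 8 to 14 of the 19 epithelium members and for 13 to 15 of the 15 endothelium members, whereas a lung library had 16 to 19 and all 15. Over the 10 tumour libraries the median was at least 1 TPM, a level scaled by transcript length that can be compared between genes, for 6 epithelium members, Sftpc, Napsa, Abca3, Aqp5, Rtkn2 and Foxj1, and for 2 endothelium members, Egfl7 and Plvap. Nkx2-1 and Scgb3a2 had no count in any tumour library. The sum of Abca3, Aqp5 and Foxj1 made up 88.7% to 96.0% of the summed epithelium counts in BALB/c tumours and 91.9% to 95.4% in NSG tumours. Without those 3 genes, which were set aside after their values were seen, the other 16 epithelium members summed to 5.02 to 14.9 CPM in BALB/c tumours and 6.27 to 12.7 CPM in NSG tumours. The same 16 genes summed to 77.5 to 3805 CPM in BALB/c DTC, 29.1 to 70.0 CPM in NSG DTC, 14.9 to 78.2 CPM in BALB/c macro-mets and 20.4 to 46.9 CPM in NSG macro-mets. Every lung group was thus above its own tumour group without overlap, except that the lowest BALB/c macro-met library and the highest BALB/c tumour library were both at 14.9 CPM.

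**Figure D1:**
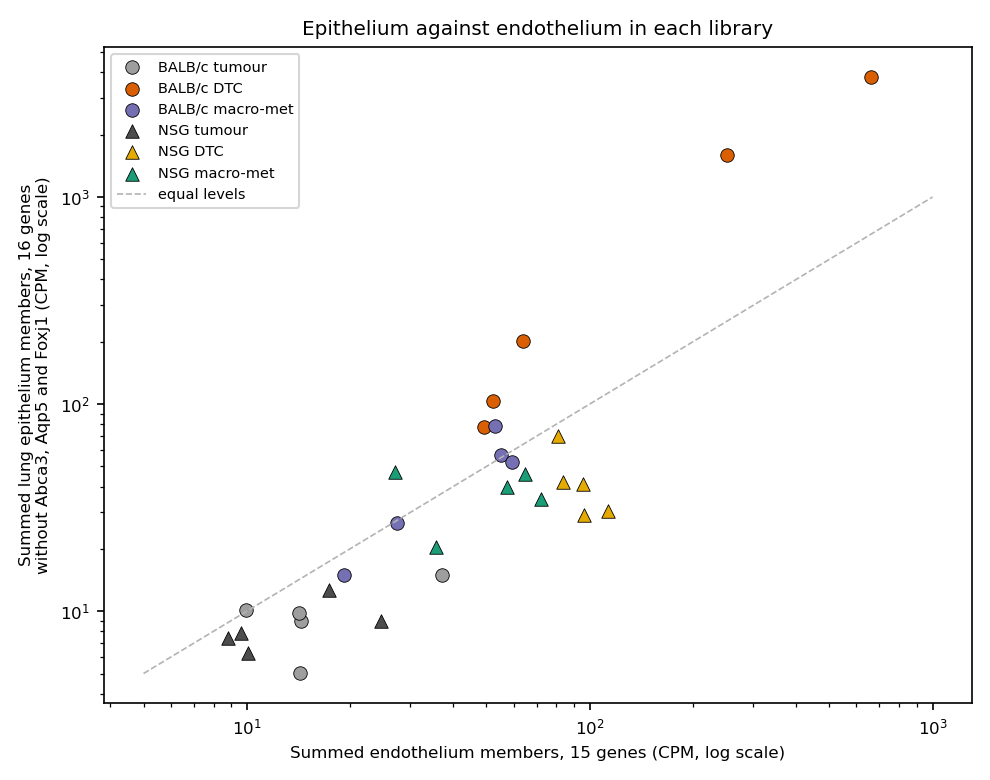
Summed counts of the 15 endothelium members (x axis, CPM, log scale) against the 16 epithelium members left without Abca3, Aqp5 and Foxj1 (y axis, CPM, log scale), one point per library, with a dashed line where the sums are equal. The 5 BALB/c DTC libraries lie above the line at 1.57 to 6.30 times as much epithelium as endothelium, and the 5 NSG DTC libraries lie below it at 0.269 to 0.868 times.

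Members were then counted across comparisons in a single edgeR quasi-likelihood fit over the 17774 genes that passed the low-count filter, with p-values adjusted by Benjamini-Hochberg and called at 0.05. Of the 19 epithelium members 17 passed that filter. Nkx2-1 and Scgb3a2 did not, and all 15 endothelium members did. A member that is near 0 in tumours passed because of its lung libraries, so the counts describe these members and are read beside the share of all genes called. In BALB/c mice, DTC against tumour, 14 of 17 epithelium members rose and Foxj1 fell, while 20.4% of all genes rose and 21.0% fell. All 15 endothelium members rose in the same comparison. The median log2 fold change was 6.25 over the epithelium members and 3.84 over the endothelium members, against -0.09 over all genes. The DTC and tumour libraries had TPM ranges that did not overlap for 10 epithelium and 6 endothelium members, beside 20.2% of all genes tested, and without replicates 1 and 2 for 11 and 6 members, beside 29.7%. Without BALB/c DTC replicates 1 and 2, 11 of 17 epithelium members rose (median 2.73) and 7 of 15 endothelium members rose (median 1.69), beside 17.3% of all genes that rose and 18.9% that fell.

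In NSG mice, DTC against tumour, 9 epithelium members rose and Foxj1 fell, and 12 endothelium members rose, where 16.0% of all genes rose and 9.55% fell. The medians were 2.31 and 2.80, against 0.06 over all genes, and 11 epithelium and 12 endothelium members did not overlap between the groups in TPM, beside 28.1% of all genes tested. The 9 epithelium members were Sftpc, Sftpb, Sftpa1, Sftpd, Lamp3, Ager, Hopx, Aqp5 and Cldn18, and the 3 endothelium members not called were Egfl7, Robo4 and Emcn. Of the club cell genes, Scgb1a1 and Cyp2f2 were not called and Scgb3a2 was not tested. In the fit without the 2 lung-rich BALB/c DTC libraries, 1 club cell gene was called higher in this NSG comparison.

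Later lung libraries were then set against the earlier ones. In BALB/c mice, macro-met against DTC, 13 epithelium members fell with a median of -3.85 and 12 endothelium members fell with a median of -2.55, where 16.6% of all genes rose and 14.2% fell. Without BALB/c DTC replicates 1 and 2 this count was 2 for epithelium, Napsa higher and Aqp5 lower (median -0.94), and 1 for endothelium, Egfl7 lower (median -0.24), where 13.0% of all genes rose and 10.0% fell. Without replicate 1 alone, 4 endothelium members were called. In NSG mice, macro-met against DTC, Napsa rose and Lamp3 fell among the epithelium members (median -0.01), and Calcrl, Kdr and Tek fell among the endothelium members (median -0.67). Those shares are below the 21.3% of all genes that rose and the 22.4% that fell.

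Macro-mets were also compared with the tumours. In BALB/c mice 10 of 17 epithelium members rose in macro-mets against tumours (median 1.90) and 5 of 15 endothelium members rose (median 1.44), where 19.6% of all genes rose and 18.2% fell. Leaving out BALB/c tumour replicate 4, the tumour library with the highest endothelium sum, raised the endothelium count to 9. In NSG mice 9 epithelium members rose and Foxj1 fell (median 2.59), and 7 endothelium members rose (median 2.00), where 16.9% of all genes rose and 13.6% fell. The endothelium count was 11 without NSG tumour replicate 3. Medians were the same when members listed at 0 in every tumour library of a strain were set to the bound given by 3 counts.

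**Figure D2:**
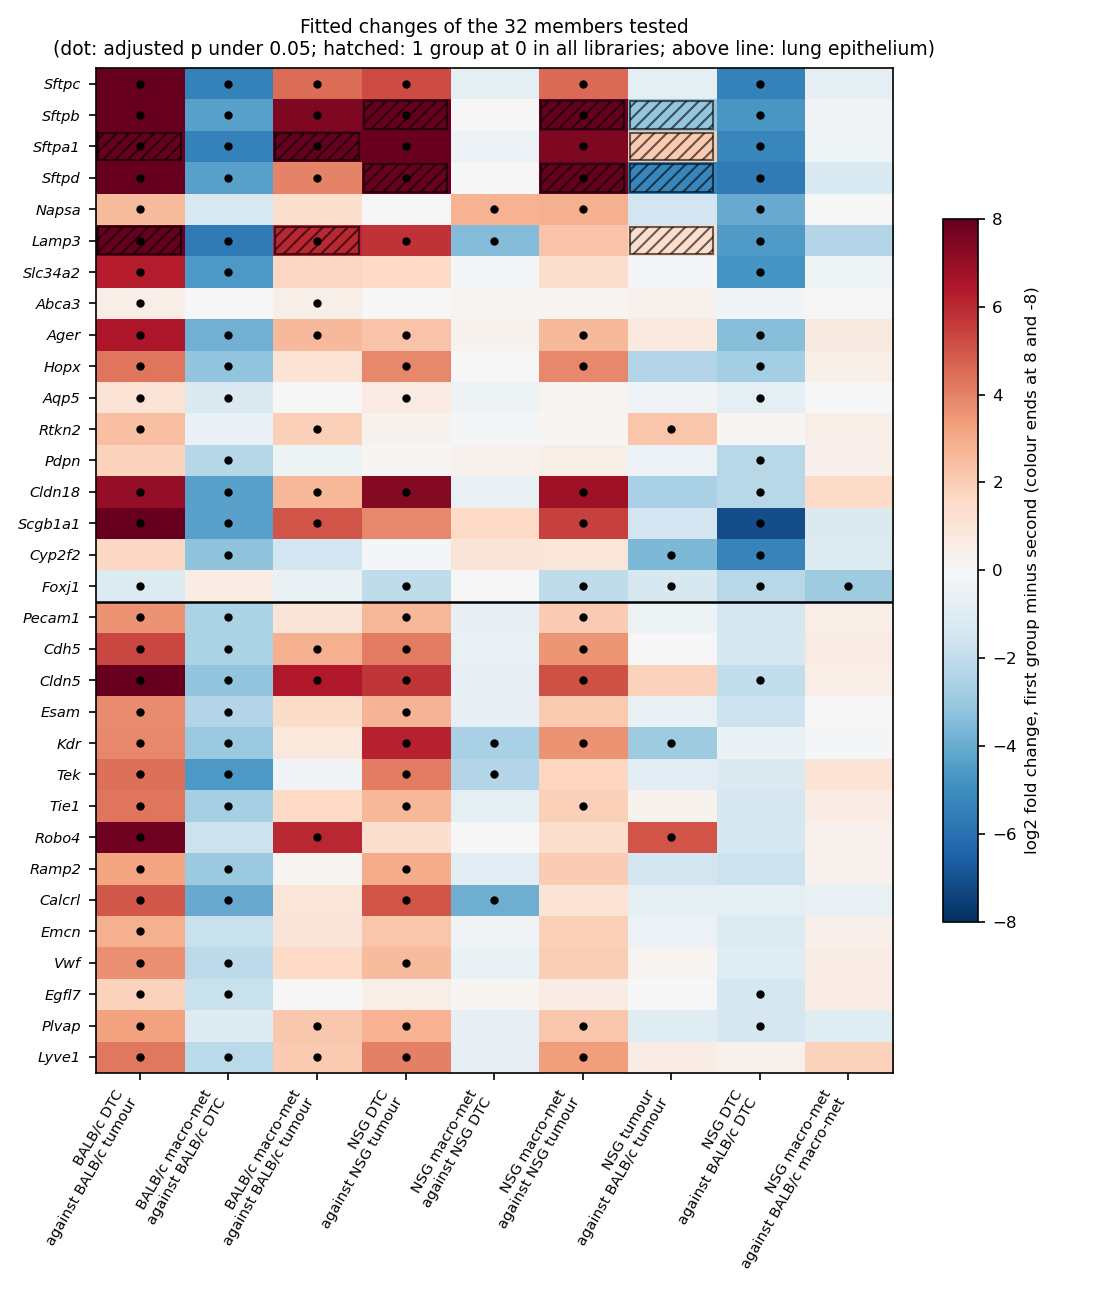
Log2 fold changes of the 32 members tested (rows, by list and role) in the 9 comparisons between groups (columns). Colour gives the direction and size, a dot marks an adjusted p under 0.05, and hatching marks a group with no count in any library, where the fitted value is no bound. All 15 endothelium members carry a dot for BALB/c DTC against tumour, and the NSG macro-met against BALB/c macro-met column has a single dot, at Foxj1.

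Of the 8 alveolar type 2 members, 8 rose in BALB/c DTC against tumour libraries, where 20.4% of all genes rose. Without replicates 1 and 2 this was 6, where 17.3% of all genes rose, and in NSG mice 5, where 16.0% rose. The surfactant protein genes Sftpc, Sftpb, Sftpa1 and Sftpd were among them each time, while Napsa and Slc34a2 were called only with replicates 1 and 2 kept. Sftpc, at chr14:70520949-70524081 on the minus strand of GRCm38, encodes a surfactant protein made by type 2 cells. Sftpc in BALB/c mice was at 3.02, 6.16, 0.0915, 0 and 2.53 TPM in the tumours, 7326, 3282, 187, 374 and 142 TPM in the DTC libraries and 2.17, 3.47, 139, 77.3 and 70.8 TPM in the macro-mets. The tumours reached no more than 6.16 TPM, the DTC libraries did not overlap them, macro-met replicates 1 and 2 lay within the tumour range, and replicates 1 and 2 were far above the other 3 DTC libraries. Sftpc in NSG mice was at 0.882, 3.28, 1.39, 0.157 and 1.88 TPM in the tumours, 36.3, 55.5, 129, 55.1 and 26.5 TPM in the DTC libraries and 9.67, 53.4, 13.8, 32.7 and 56.7 TPM in the macro-mets, so every lung library was above every tumour. The log2 fold change in DTC against tumour libraries was 9.87 ± 1.41, adjusted p = 5.09e-06, in BALB/c and 5.24 ± 1.29, adjusted p = 0.00373, in NSG mice, where each error here and below is the standard error of the fit. With the 2 lung-rich libraries left out, the BALB/c rise was 6.70 ± 1.09, adjusted p = 4.11e-05. BALB/c macro-mets were lower than DTC libraries, with a log2 fold change of -5.39 ± 1.13, adjusted p = 0.000676, a call that was lost without those 2 libraries (-2.19 ± 0.92, adjusted p = 0.0911). In NSG mice macro-mets and DTC libraries overlapped (-0.72 ± 0.97, adjusted p = 0.578).

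Sftpb encodes the surfactant protein needed to spread the film. Sftpb in BALB/c mice was at 0, 0.0787, 0, 0 and 0.0459 TPM in the tumours, 341, 146, 6.74, 13.0 and 7.10 TPM in the DTC libraries and 0.565, 0.203, 8.85, 8.96 and 9.36 TPM in the macro-mets. In NSG mice it was at 0 in all 5 tumours, at 2.57, 7.56, 7.08, 4.97 and 1.87 TPM in DTC libraries and at 1.63, 8.22, 1.16, 4.04 and 6.74 TPM in macro-mets. All 20 lung libraries were above all 10 tumours. The BALB/c rise in DTC libraries was 11.79 ± 1.68, adjusted p = 8.31e-06, and it was 8.35 ± 1.15, adjusted p = 6.45e-06 without the 2 lung-rich libraries. Against a floor of 3 counts over the 5 NSG tumours, Sftpb was at least 273-fold higher in NSG DTC libraries and at least 238-fold higher in NSG macro-mets.

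The collectins Sftpa1 and Sftpd, surfactant proteins with a role in innate defence, were also high where Sftpc was. Sftpa1 had no count in BALB/c tumours and was at 5.71 to 289 TPM in BALB/c DTC, 0 to 4.84 TPM in BALB/c macro-mets, 0.915 to 4.97 TPM in NSG DTC and 0.477 to 3.17 TPM in NSG macro-mets. It was at least 7944-fold higher over the BALB/c DTC group than the tumour floor, and at least 812-fold higher over its 3 libraries without the lung-rich ones. Sftpd was at 3.49 to 199 TPM in BALB/c DTC and 0.650 to 2.16 TPM in NSG DTC, where it had no count in the tumours and was at least 51.9-fold higher. Within the BALB/c DTC group the make-up of the surfactant counts varied little. For each 100 Sftpc counts there were 13.4 to 15.6 Sftpa1 counts and 8.48 to 12.3 Sftpb counts, in the lung-rich libraries and in the others. In NSG DTC libraries these were 11.7 to 23.8 and 13.4 to 33.3.

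Other type 2 genes split by how much of them the tumours held. Lamp3, a lysosomal membrane protein of lamellar bodies, had no count in BALB/c tumours, 1 NSG tumour library at 0.0126 TPM, and 25.0, 6.79, 0.450, 0.570 and 0.0133 TPM in BALB/c DTC libraries. It was at 0.242, 0.44, 0.388, 0.247 and 0.343 TPM in NSG DTC libraries and 0, 0.0443, 0, 0.0714 and 0.0211 TPM in NSG macro-mets, with no overlap, and fell between them, with a log2 fold change of -3.47 ± 1.30, adjusted p = 0.0335. That call was lost when any of 5 single libraries was left out, with values of -3.13 to -4.09 over the 10 such fits. Slc34a2, the phosphate transporter of type 2 cells, had group medians of 0.0587 TPM in BALB/c and 0.0386 TPM in NSG tumours, against 2.02 TPM in BALB/c DTC and 0.702 TPM in NSG DTC. BALB/c tumours reached 1.22 TPM, in replicate 4, below the lowest BALB/c DTC library at 1.86 TPM. NSG tumours reached 0.962 TPM, in replicate 3, and overlapped NSG DTC libraries at 0.343 to 2.26 TPM. Its BALB/c rise in DTC libraries was 6.25 ± 1.41, adjusted p = 0.000874, and was not called without the 2 lung-rich libraries (2.73 ± 1.25, adjusted p = 0.0896). Its NSG value was 1.59 ± 1.24, adjusted p = 0.378.

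Napsa, the aspartic protease that processes surfactant protein B, did not follow the surfactant genes. Napsa in BALB/c mice was at 2.31, 2.77, 1.22, 1.63 and 1.83 TPM in the tumours, 37.9, 15.5, 1.89, 1.38 and 0.887 TPM in the DTC libraries and 3.82, 3.75, 3.40, 7.21 and 8.26 TPM in the macro-mets. Napsa in NSG mice was at 0.776, 0.684, 0.369, 0.853 and 0.674 TPM in the tumours, 0.831, 0.676, 1.48, 0.620 and 0.338 TPM in the DTC libraries and 4.64, 3.58, 4.74, 6.19 and 5.57 TPM in the macro-mets. BALB/c DTC replicates 1 and 2 were the highest of all, while the other 3 DTC libraries lay within or below the range of BALB/c tumours, and in both strains the macro-mets were above the tumours. Napsa rose in BALB/c DTC against tumour libraries by 2.56 ± 0.64, adjusted p = 0.00214, and without the 2 libraries the value turned to -0.43 ± 0.39, adjusted p = 0.401. In NSG mice it rose in macro-mets against DTC libraries by 2.79 ± 0.66, adjusted p = 0.00102. In BALB/c mice Napsa was not called in macro-mets against DTC libraries with all libraries kept. Against the 3 remaining DTC libraries, BALB/c macro-mets were higher by 1.77 ± 0.41, adjusted p = 0.00174. The 2 libraries left out held the highest Napsa levels, so that value leans toward a rise and its p-value does not allow for the choice.

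Abca3, the lipid pump of lamellar bodies, was near its lung level in the tumours. Abca3 in BALB/c mice was at 29.8, 25.8, 27.6, 19.0 and 24.6 TPM in the tumours, 35.6, 36.5, 30.3, 28.2 and 47.0 TPM in the DTC libraries and 35.2, 37.2, 35.6, 41.1 and 35.7 TPM in the macro-mets. Abca3 in NSG mice was at 24.1, 31.2, 25.5, 37.7 and 39.5 TPM in the tumours, 36.5, 45.0, 35.4, 36.5 and 31.7 TPM in the DTC libraries and 44.0, 42.2, 33.4, 36.0 and 34.3 TPM in the macro-mets. Its 30 values spanned 19.0 to 47.0 TPM and barely marked the lung groups. The rise in BALB/c DTC libraries was small, 0.52 ± 0.12, adjusted p = 0.00122, and 0.53 ± 0.15, adjusted p = 0.00652, without the 2 libraries, with a rise of 0.47 ± 0.12, adjusted p = 0.00373, in BALB/c macro-mets. The NSG values were 0.01 ± 0.12, adjusted p = 0.963, and 0.20 ± 0.12, adjusted p = 0.221.

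**Figure D3:**
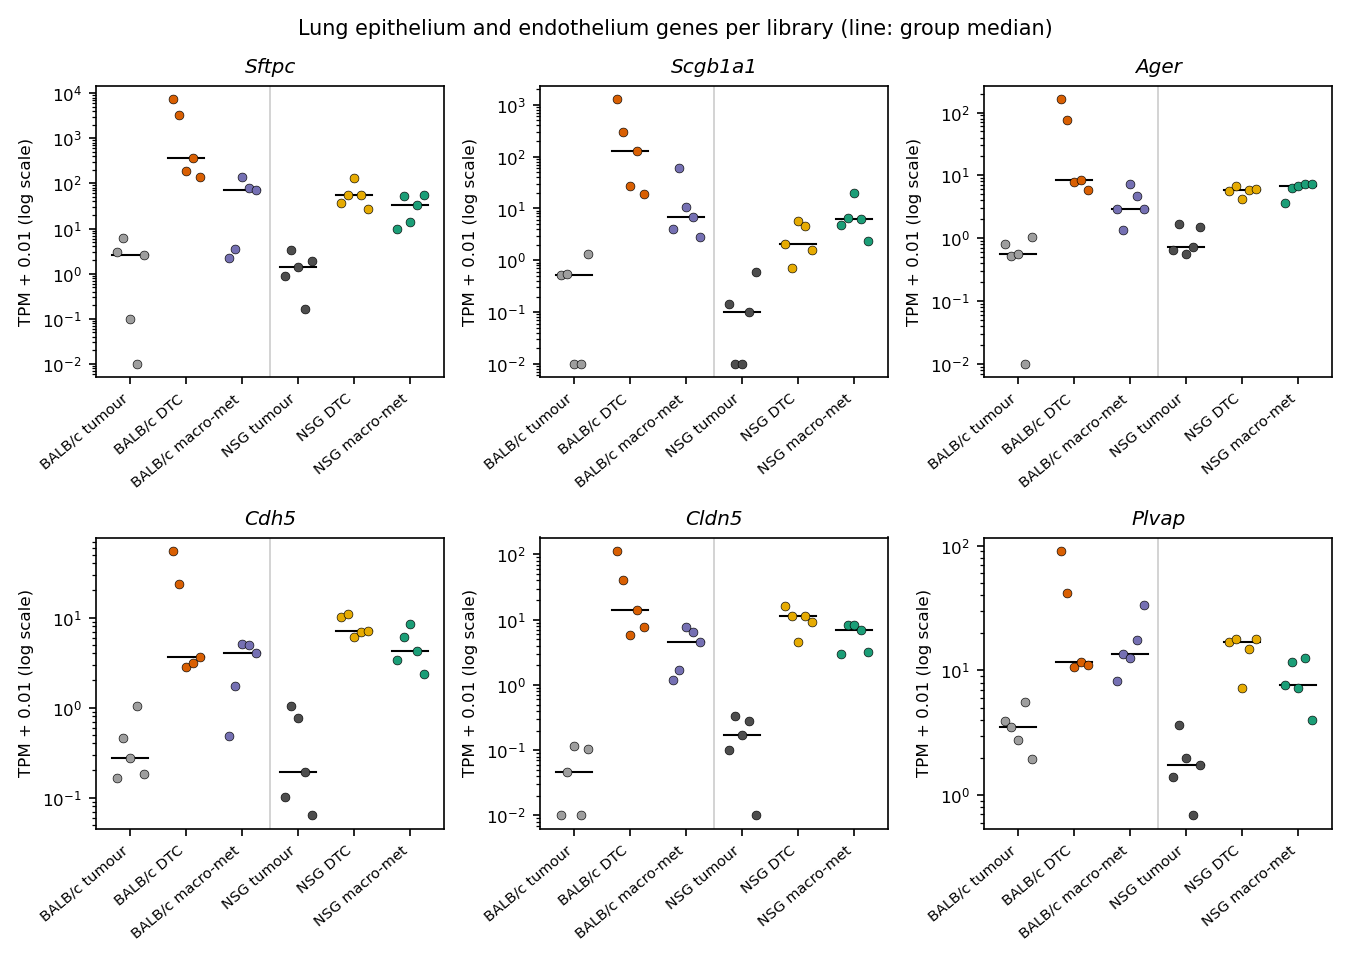
Levels of Sftpc, Scgb1a1, Ager, Cdh5, Cldn5 and Plvap (TPM + 0.01, log axis) in each of the 30 libraries by group, with a line at the group median. The tumour median is the lowest of its strain for all 6 genes, and BALB/c DTC replicates 1 and 2 lie highest, at 7326 and 3282 TPM for Sftpc.

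Of the 5 alveolar type 1 members, 4 rose in BALB/c DTC against tumour libraries, or 3 without replicates 1 and 2, and 3 in NSG mice. Over all genes 20.4%, 17.3% and 16.0% rose in these fits. Ager, the receptor for advanced glycation end products, is the gene most used to mark type 1 cells. Ager in BALB/c mice was at 0.813, 0.506, 0.550, 0 and 1.05 TPM in the tumours, 163, 75.5, 7.80, 8.36 and 5.95 TPM in the DTC libraries and 2.90, 1.36, 7.4, 4.71 and 2.91 TPM in the macro-mets. Ager in NSG mice was at 0.633, 1.70, 0.542, 0.707 and 1.52 TPM in the tumours, 5.66, 6.77, 4.16, 5.93 and 6.04 TPM in the DTC libraries and 3.61, 6.20, 6.71, 7.28 and 7.22 TPM in the macro-mets. Lung libraries of both strains were above their tumours, and outside BALB/c DTC replicates 1 and 2 all lung libraries lay between 1.36 and 8.36 TPM. The rise in DTC libraries was 6.46 ± 0.84, adjusted p = 7.15e-07, in BALB/c and 2.31 ± 0.72, adjusted p = 0.0177, in NSG mice. Without the 2 libraries the BALB/c value was 3.72 ± 0.55, adjusted p = 6.1e-06, and the NSG call was lost without NSG tumour replicate 3, at 2.13. Macro-mets were above tumours by 2.61 ± 0.74, adjusted p = 0.00681, and 2.59 ± 0.72, adjusted p = 0.00754, in BALB/c and NSG mice.

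Hopx, a homeodomain protein without DNA binding, had tumour medians of 0.179 TPM in BALB/c and 0.111 TPM in NSG mice and lung medians of 4.63 and 3.42 TPM in the DTC libraries. BALB/c tumour replicate 4 was at 4.43 TPM, above BALB/c DTC replicates 4 and 5 at 3.86 and 3.79 TPM, so those groups overlapped. NSG tumours reached 0.648 TPM, below all NSG DTC libraries. It rose in DTC libraries by 4.25 ± 0.99, adjusted p = 0.00112, and 3.85 ± 1.04, adjusted p = 0.00726, and the BALB/c rise was not called without the 2 libraries (1.95 ± 0.91, adjusted p = 0.0957). Pdpn, the mucin-like podoplanin of type 1 cells that is also made by lymphatic vessels, overlapped between tumours and DTC libraries and gave 1.86 ± 0.85, adjusted p = 0.078, in BALB/c mice, or -0.08 ± 0.91, adjusted p = 0.954, without the 2 libraries, and 0.09 ± 0.84, adjusted p = 0.955, in NSG mice. Rtkn2 was at 1.45, 0.447, 0.570, 0 and 0.431 TPM in the tumours, 6.43, 4.05, 1.5, 1.56 and 1.57 TPM in the DTC libraries and 2.16, 1.82, 2.39, 2.67 and 2.29 TPM in the macro-mets in BALB/c mice. Rtkn2 in NSG mice was at 2.09, 4.13, 1.92, 2.52 and 2.62 TPM in the tumours, 2.90, 3.58, 3.77, 4.40 and 3.95 TPM in the DTC libraries and 2.92, 3.14, 3.60, 2.83 and 2.73 TPM in the macro-mets. NSG tumours were above BALB/c tumours without overlap and by 2.20 ± 0.52, adjusted p = 0.00236, against the direction of most of its list. Rtkn2 rose in BALB/c DTC libraries by 2.41 ± 0.52, adjusted p = 0.000514, and by 1.48 ± 0.51, adjusted p = 0.025, without the 2 libraries, and its NSG value was 0.28 ± 0.49, adjusted p = 0.725.

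Aqp5, a water channel of type 1 cells and of glands, was abundant in the tumours. Aqp5 in BALB/c mice was at 43.0, 90.3, 22.3, 35.9 and 53.1 TPM in the tumours, 89.7, 80.1, 94.6, 131 and 98.7 TPM in the DTC libraries and 65.9, 49.4, 36.2, 45.2 and 45.9 TPM in the macro-mets. Aqp5 in NSG mice was at 33.2, 47.2, 35.0, 40.9 and 37.6 TPM in the tumours, 83.2, 79.0, 50.7, 65.3 and 72.6 TPM in the DTC libraries and 51.7, 57.1, 42.9, 42.1 and 46.2 TPM in the macro-mets. Here the lung-rich libraries did not stand out: BALB/c DTC replicates 1 and 2 were the lowest of their group, at 89.7 and 80.1 TPM. Aqp5 rose in BALB/c DTC libraries by 1.09 ± 0.21, adjusted p = 0.000165, and by 1.24 ± 0.24, adjusted p = 0.000157, without them, and fell in BALB/c macro-mets, with a log2 fold change of -1.14 ± 0.21, adjusted p = 0.000139, or -1.30 ± 0.24, adjusted p = 0.000147, without them. In NSG mice it rose by 0.64 ± 0.21, adjusted p = 0.026, a call lost in 6 of the 10 fits that left out a single library, whose values ran from 0.53 to 0.70. The fall in NSG macro-mets was smaller and not called (-0.40 ± 0.21, adjusted p = 0.131).

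Nkx2-1, the transcription factor that sets lung epithelial identity, and Cldn18, a tight junction protein of alveolar cells, are shared by the epithelial types. Nkx2-1 had no count in the 10 tumours. It was at 9.10, 3.44, 0.151, 0.239 and 0.0627 TPM in BALB/c DTC, 0.0559, 0.0312, 0.117, 0.0546 and 0.137 TPM in BALB/c macro-mets, 0.0190, 0.0767, 0.164, 0.0581 and 0.144 TPM in NSG DTC and 0.0182, 0.174, 0, 0 and 0.223 TPM in NSG macro-mets. Outside BALB/c DTC replicates 1 and 2 it never passed 0.239 TPM, and it did not pass the filter and has no test. Over each group, against 3 counts over the tumours of that strain, Nkx2-1 was at least 222-fold higher in BALB/c DTC, 12.7-fold without the lung-rich libraries, at least 6.42-fold in BALB/c macro-mets, 7.00-fold in NSG DTC and 6.53-fold in NSG macro-mets. Cldn18 rose in DTC libraries by 7.01 ± 1.04, adjusted p = 5.35e-06, in BALB/c and 7.33 ± 1.21, adjusted p = 7.45e-05, in NSG mice. Its BALB/c value was 4.32 ± 0.90, adjusted p = 0.000378, without the 2 libraries.

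Airway club cell genes varied between libraries of a group. Scgb1a1, the main secretoglobin of club cells, was at 0.510, 0.542, 0, 0 and 1.33 TPM in the tumours, 1282, 299, 27.1, 129 and 18.6 TPM in the DTC libraries and 4.01, 61.6, 10.6, 6.95 and 2.76 TPM in the macro-mets in BALB/c mice. Scgb1a1 in NSG mice was at 0.136, 0, 0, 0.0883 and 0.589 TPM in the tumours, 2.04, 0.687, 5.77, 4.62 and 1.55 TPM in the DTC libraries and 4.79, 6.53, 20.2, 6.35 and 2.37 TPM in the macro-mets. In each strain every lung library was above every tumour, most narrowly in NSG mice, where the highest tumour was at 0.589 TPM and the lowest DTC library at 0.687 TPM. Scgb1a1 rose in DTC libraries by 9.38 ± 1.33, adjusted p = 3.71e-06, in BALB/c mice, or 6.91 ± 1.11, adjusted p = 2.34e-05, without the 2 libraries, and the NSG value was 3.87 ± 1.63, adjusted p = 0.0836. It rose in macro-mets against tumours by 5.03 ± 1.22, adjusted p = 0.00211, and 5.46 ± 1.5, adjusted p = 0.00722, in BALB/c and NSG mice. The lowest values over the fits without a single library were 3.39, without BALB/c macro-met replicate 2, and 4.72, without NSG macro-met replicate 3. The NSG call was lost without the 4 libraries with the fewest genes, NSG macro-met replicate 3 among them (4.08 ± 1.88, adjusted p = 0.121).

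BALB/c macro-met replicate 2 held more airway than surfactant counts, with 662 Scgb1a1 counts and 187 Scgb3a2 counts beside 63 Sftpc counts. The Scgb1a1 counts per 100 Sftpc counts were 1051 there, 109 in replicate 1 and 2.31 to 5.32 in the other 3 BALB/c macro-mets. Scgb3a2, a second secretoglobin, had no count in any tumour, 529 counts in BALB/c DTC replicate 1 and 189 counts over all BALB/c macro-mets, of which 187 were in replicate 2. Over the groups it was at least 256-fold higher in BALB/c DTC libraries, 41.4-fold without replicates 1 and 2, and at least 60.7-fold higher in BALB/c macro-mets than 3 counts over the tumours. The 5 NSG DTC libraries together held 2 Scgb3a2 counts. Cyp2f2, a cytochrome P450 of club cells, was at 1.82, 4.28, 1.16, 6.84 and 5.40 TPM in the tumours, 48.7, 10.3, 1.03, 0.974 and 1.98 TPM in the DTC libraries and 1.02, 1.90, 1.43, 1.25 and 1.44 TPM in the macro-mets in BALB/c mice, with 3 tumours above all macro-mets and 2 DTC libraries above all tumours. In NSG tumours it was at 0.0637, 0.539, 0.110, 0.602 and 0.332 TPM, lower than in BALB/c tumours without overlap and with a log2 fold change of -3.59 ± 0.96, adjusted p = 0.00679.

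Foxj1, the transcription factor of ciliated cells, went against its list. Foxj1 in BALB/c mice was at 20.9, 59.8, 8.47, 16.1 and 36.7 TPM in the tumours, 12.1, 8.83, 9.37, 15.9 and 15.6 TPM in the DTC libraries and 20.5, 27.1, 12.7, 17.5 and 22.0 TPM in the macro-mets. Foxj1 in NSG mice was at 9.66, 14.5, 7.80, 9.98 and 14.3 TPM in the tumours, 4.27, 3.89, 1.80, 3.10 and 2.90 TPM in the DTC libraries and 3.34, 1.88, 3.29, 2.00 and 3.55 TPM in the macro-mets. The NSG tumours were above all 10 NSG lung libraries, and the lung-rich BALB/c DTC libraries were not the highest. Foxj1 fell in NSG DTC libraries, with a log2 fold change of -2.03 ± 0.34, adjusted p = 7.26e-05, and in NSG macro-mets, at -2.06 ± 0.34, adjusted p = 4.17e-05. Its fall in BALB/c DTC libraries, -1.12 ± 0.32, adjusted p = 0.0069, was lost without replicates 1 and 2 (-0.96 ± 0.39, adjusted p = 0.055) and without BALB/c tumour replicate 2, at -0.70. NSG mice were lower than BALB/c mice at each stage, with log2 fold changes of -1.30 ± 0.33, adjusted p = 0.00411, in tumours, -2.21 ± 0.34, adjusted p = 7.96e-06, in DTC libraries (-2.38 ± 0.38, adjusted p = 1.59e-05, without the 2 libraries) and -2.83 ± 0.35, adjusted p = 3.45e-06, in macro-mets.

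**Figure D4:**
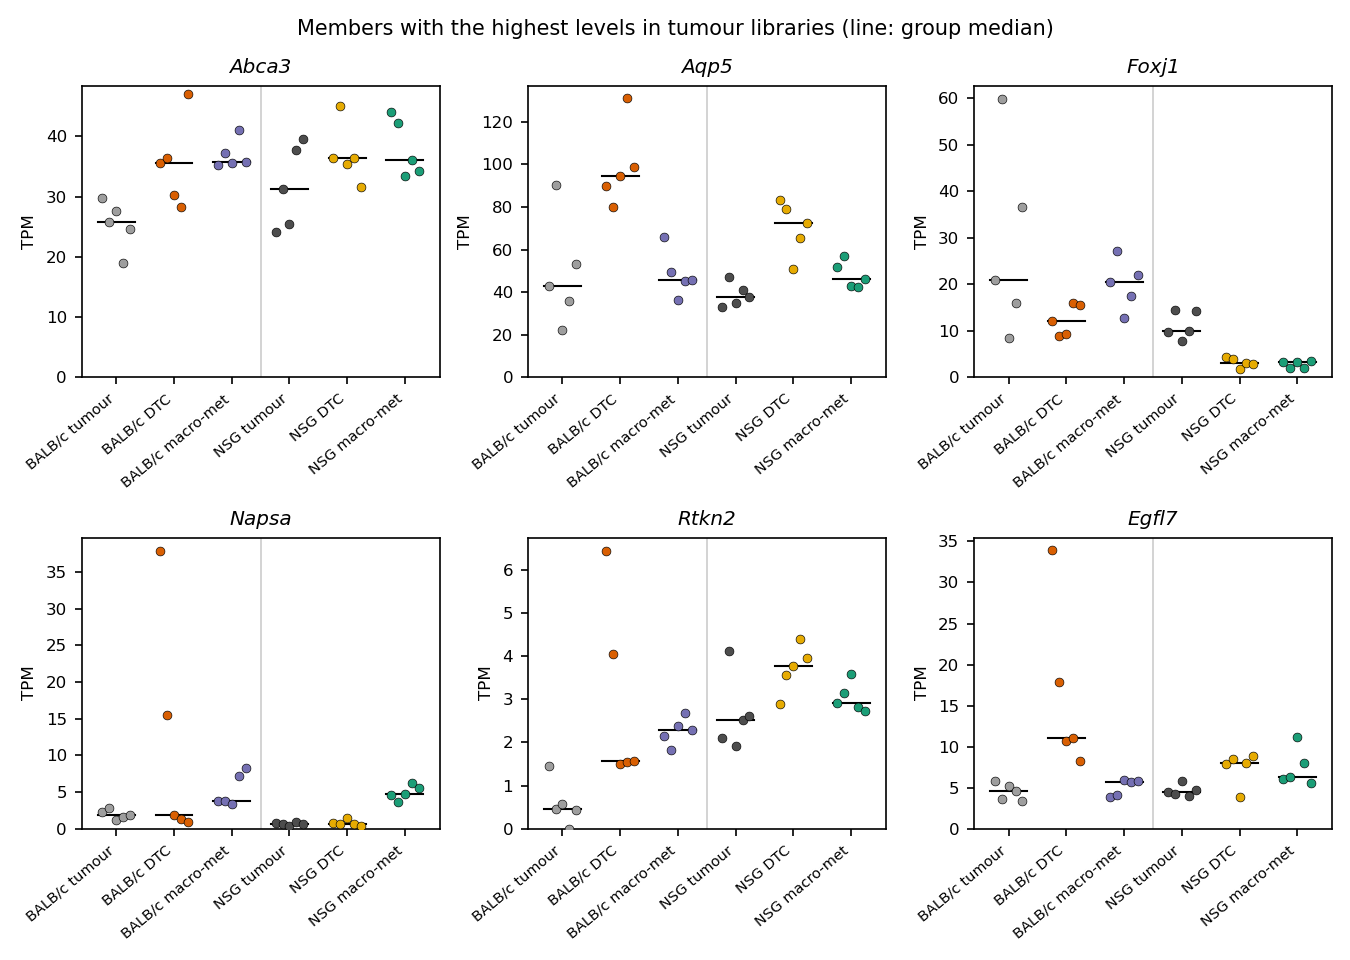
Levels of Abca3, Aqp5, Foxj1, Napsa, Rtkn2 and Egfl7 (TPM, linear axis from 0) in each of the 30 libraries by group, with a line at the group median. These members were expressed in the tumours, where Aqp5 reached 90.3 TPM and Foxj1 59.8 TPM.

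Endothelial junction genes rose in DTC libraries of both strains. Cdh5, at chr8:104101625-104144511 on the plus strand of GRCm38, encodes VE-cadherin, the adhesion molecule that holds endothelial cells together. Cdh5 in BALB/c mice was at 0.154, 0.454, 0.263, 1.04 and 0.172 TPM in the tumours, 55.3, 23.3, 2.83, 3.11 and 3.65 TPM in the DTC libraries and 0.479, 1.71, 5.07, 4.94 and 4.00 TPM in the macro-mets. Cdh5 in NSG mice was at 0.0921, 1.04, 0.765, 0.180 and 0.0533 TPM in the tumours, 10.1, 11.1, 6.10, 6.99 and 7.07 TPM in the DTC libraries and 3.38, 6.00, 8.44, 4.28 and 2.37 TPM in the macro-mets. No tumour passed 1.04 TPM, the NSG DTC libraries lay above all but the 2 lung-rich BALB/c ones, and NSG macro-mets partly overlapped NSG DTC libraries. Cdh5 rose in DTC libraries by 5.37 ± 0.89, adjusted p = 2.7e-05, in BALB/c mice, or 2.97 ± 0.70, adjusted p = 0.00157, without the 2 libraries, and by 4.10 ± 0.85, adjusted p = 0.00083, in NSG mice. In macro-mets against tumours it rose by 2.82 ± 0.82, adjusted p = 0.00812, and 3.50 ± 0.84, adjusted p = 0.00234.

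Cldn5, the tight junction claudin of endothelium, was nearly absent from tumours. Cldn5 in BALB/c mice was at 0, 0.0365, 0.104, 0 and 0.0958 TPM in the tumours, 114, 39.9, 5.88, 13.9 and 7.81 TPM in the DTC libraries and 1.2, 1.69, 7.74, 6.36 and 4.61 TPM in the macro-mets. Cldn5 in NSG mice was at 0.0912, 0.322, 0.158, 0.268 and 0 TPM in the tumours, 16.1, 11.4, 4.62, 11.5 and 9.08 TPM in the DTC libraries and 2.93, 8.27, 8.36, 6.87 and 3.14 TPM in the macro-mets. The lowest lung library, at 1.2 TPM, was above the highest tumour, at 0.322 TPM. Cldn5 rose in DTC libraries by 9.56 ± 0.99, adjusted p = 1.79e-08, in BALB/c mice, or 7.64 ± 0.78, adjusted p = 1.47e-08, without the 2 libraries, and by 5.74 ± 0.83, adjusted p = 1.41e-05, in NSG mice, and in macro-mets by 6.38 ± 0.96, adjusted p = 1.12e-05, and 5.07 ± 0.82, adjusted p = 3.74e-05. It was the endothelium member with the largest BALB/c value without the lung-rich libraries.

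Pecam1, the adhesion molecule CD31, which leukocytes and platelets also carry, had a higher tumour level. Pecam1 in BALB/c mice was at 0.468, 1.04, 0.532, 2.73 and 0.682 TPM in the tumours, 41.9, 17.5, 2.76, 2.65 and 2.33 TPM in the DTC libraries and 0.919, 1.37, 3.90, 3.63 and 2.45 TPM in the macro-mets. Pecam1 in NSG mice was at 0.466, 1.05, 1.95, 0.229 and 0.396 TPM in the tumours, 7.49, 6.49, 6.27, 4.86 and 5.32 TPM in the DTC libraries and 2.37, 4.71, 3.92, 4.42 and 1.77 TPM in the macro-mets. BALB/c tumour replicate 4, at 2.73 TPM, overlapped the 3 lower BALB/c DTC libraries. The rise was 3.58 ± 0.73, adjusted p = 0.000288, in BALB/c mice, where without the 2 libraries it was not called (1.27 ± 0.56, adjusted p = 0.0769), and 2.66 ± 0.71, adjusted p = 0.00637, in NSG mice. Esam, a junction molecule of endothelium and platelets, rose by 3.81 ± 0.86, adjusted p = 0.000759, and 2.74 ± 0.83, adjusted p = 0.0155, in DTC libraries of BALB/c and NSG mice, and was not called in BALB/c mice without the 2 libraries (0.88 ± 0.67, adjusted p = 0.311).

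Among the 6 receptors, 3 fell in NSG macro-mets against NSG DTC libraries, where the value for Cdh5 was -0.60 ± 0.73, adjusted p = 0.539. These 3 were all that fell of the 15 endothelium members, a share below the 22.4% of all genes that fell. Kdr is the main receptor for VEGF. Kdr in BALB/c mice was at 0.0224, 0.0800, 0.0163, 0.720 and 0.0150 TPM in the tumours, 8.00, 3.57, 0.5, 0.557 and 0.390 TPM in the DTC libraries and 0.0821, 0.103, 0.487, 0.658 and 0.452 TPM in the macro-mets. Kdr in NSG mice was at 0.05, 0, 0.0297, 0.0186 and 0.0186 TPM in the tumours, 2.35, 2.23, 2.05, 1.89 and 1.88 TPM in the DTC libraries and 0.327, 0.443, 0.181, 0.308 and 0.305 TPM in the macro-mets, with all DTC libraries above all macro-mets. Kdr rose in NSG DTC libraries against tumours by 6.15 ± 1.09, adjusted p = 0.000155, and fell from DTC libraries to macro-mets, at -2.58 ± 0.87, adjusted p = 0.0169. In BALB/c mice it rose in DTC libraries by 3.84 ± 0.92, adjusted p = 0.00144, which was not called without the 2 libraries (1.48 ± 0.82, adjusted p = 0.158). The lower level in NSG than in BALB/c tumours, -2.84 ± 1.03, adjusted p = 0.0447, rested on BALB/c tumour replicate 4 and was -0.39 without it.

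Calcrl, which pairs with Ramp2 to form the adrenomedullin receptor, was at 0.0264, 0, 0.458, 0.155 and 0.0115 TPM in NSG tumours, 6.27, 4.15, 7.35, 4.51 and 5.03 TPM in NSG DTC libraries and 0.138, 0.758, 0.177, 0.244 and 0.332 TPM in NSG macro-mets. The DTC libraries were above all others of the strain, and Calcrl rose by 5.03 ± 1.09, adjusted p = 0.00111, in NSG DTC libraries against tumours and fell in macro-mets against DTC libraries, at -3.90 ± 1.02, adjusted p = 0.00246. Calcrl in BALB/c mice was at 0.133, 0.275, 0.211, 0.487 and 0.139 TPM in the tumours, 30.5, 7.21, 0.866, 1.00 and 0.274 TPM in the DTC libraries and 0.0217, 0.127, 0.561, 0.889 and 1.03 TPM in the macro-mets. It rose in BALB/c DTC libraries by 4.98 ± 1.07, adjusted p = 0.000492, and was not called without the 2 lung-rich libraries (1.55 ± 0.85, adjusted p = 0.157). Ramp2, the partner protein, rose in DTC libraries by 3.18 ± 0.85, adjusted p = 0.00371, and 2.94 ± 0.87, adjusted p = 0.0128, and was not called in BALB/c mice without the 2 libraries (1.19 ± 0.77, adjusted p = 0.234). Its NSG macro-met against DTC value was -0.88 ± 0.79, adjusted p = 0.391.

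Tek and Tie1 encode the angiopoietin receptor and its partner. Tek was at 2.46 to 3.31 TPM in NSG DTC libraries, 0.135 to 0.879 TPM in NSG macro-mets and 0.0178 to 0.417 TPM in NSG tumours. It rose by 4.08 ± 1.04, adjusted p = 0.00443, in NSG DTC libraries against tumours and fell in macro-mets against DTC libraries, at -2.37 ± 0.94, adjusted p = 0.0425. In BALB/c DTC libraries Tek rose by 4.40 ± 1.03, adjusted p = 0.00118, and was not called without the 2 libraries (1.94 ± 0.94, adjusted p = 0.107). The NSG fall was lost in 9 of the 10 fits without a single library, whose values ran from -2.14 to -2.71. Tie1 rose in DTC libraries by 4.29 ± 0.71, adjusted p = 2.08e-05, in BALB/c mice, or 2.32 ± 0.56, adjusted p = 0.00158, without the 2 libraries, and 2.64 ± 0.66, adjusted p = 0.0038, in NSG mice, and its NSG macro-met against DTC value was -0.72 ± 0.61, adjusted p = 0.365. Robo4, a guidance receptor of endothelium, was at 0, 0, 0, 0 and 0.0170 TPM in BALB/c tumours and 0.0365, 0.566, 0.219, 0 and 0.0106 TPM in NSG tumours, and the groups overlapped. NSG tumours were higher by 5.01 ± 1.35, adjusted p = 0.00692, or 3.84 without NSG tumour replicate 2, the library with the highest level, and the call was lost without the 4 libraries with the fewest genes, at 1.43. Robo4 rose in BALB/c DTC libraries by 7.76 ± 1.38, adjusted p = 4.96e-05, or 5.58 ± 1.30, adjusted p = 0.00122, without the 2 libraries, and its NSG value was 1.35 ± 0.96, adjusted p = 0.331.

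Kdr, Calcrl and Tek, picked because they fell in these same NSG libraries, were also set against Cdh5, another endothelial gene. Tie1, Ramp2 and Robo4 were not. The measure was counts per 100 Cdh5 counts within a library. For Kdr this was 43.3 to 72.1 in NSG DTC libraries and 4.62 to 27.7 in NSG macro-mets, without overlap, while BALB/c DTC libraries at 22.9 to 38.5 and macro-mets at 13.0 to 36.8 overlapped. For Calcrl it was 43.7 to 139.8 in NSG DTC libraries and 2.44 to 16.3 in NSG macro-mets, without overlap, and 8.70 to 64.2 in BALB/c DTC libraries and 5.26 to 30.1 in BALB/c macro-mets, which overlapped. Tek was at 33.6 to 49.5 in NSG DTC libraries against 6.38 to 17.7 in macro-mets, and at 14.2 to 51.2 in BALB/c DTC libraries against 5.26 to 8.96 in macro-mets. The 4 lung groups had Pecam1 medians of 110.0 to 114 per 100 Cdh5 counts, and Cldn5 overlapped between NSG DTC libraries and macro-mets at 25.5 to 55.2 and 29.2 to 54.0. Sftpc per 100 Cdh5 counts was 743 to 2695 in BALB/c DTC libraries and 68.7 to 405 in NSG DTC libraries, without overlap. These ratios are descriptions with no test.

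**Figure D5:**
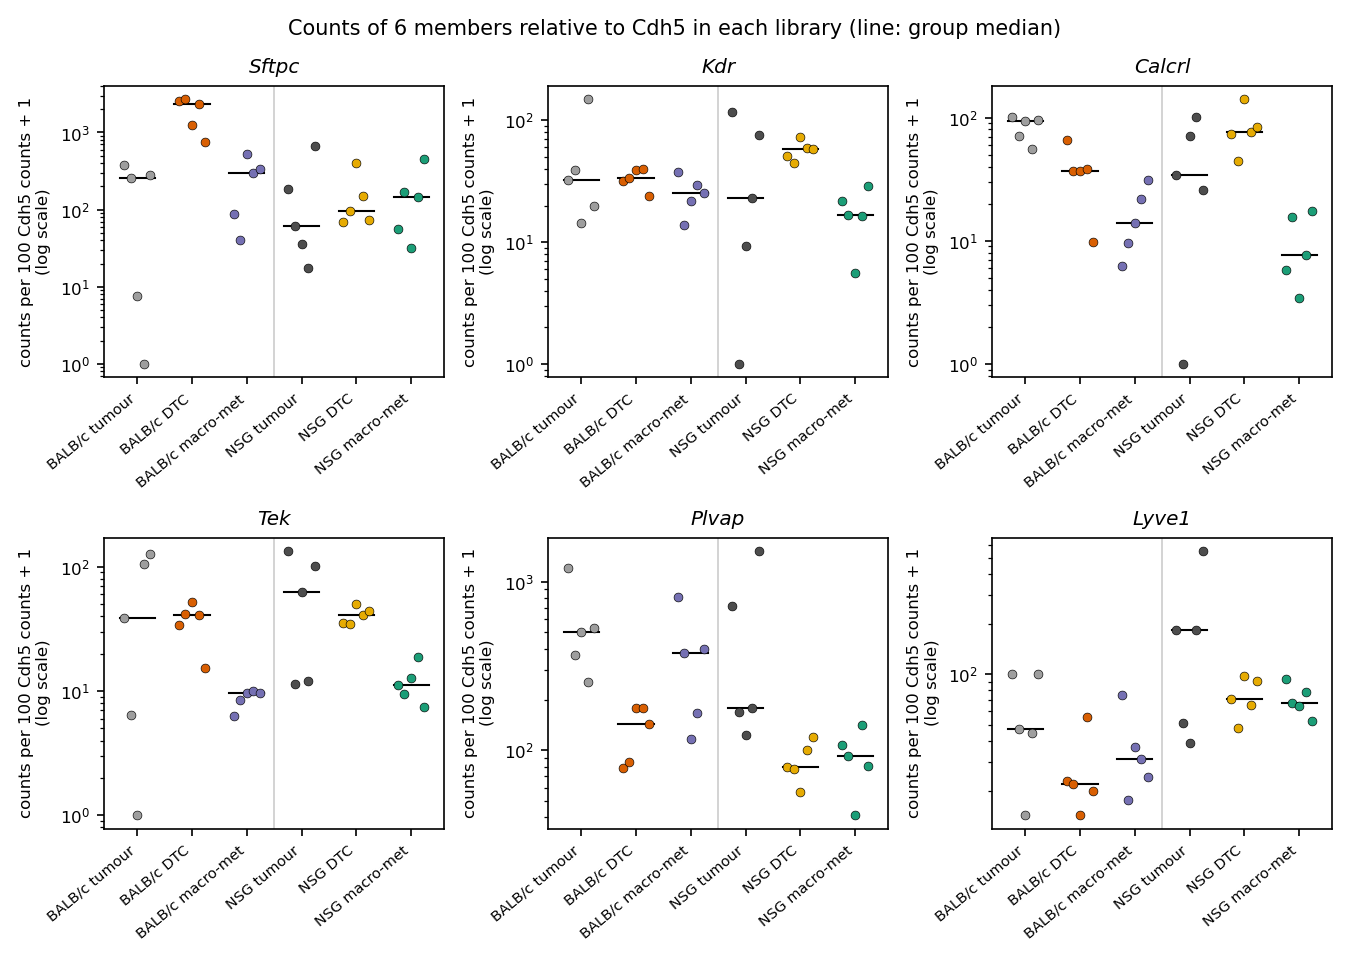
Counts of Sftpc, Kdr, Calcrl, Tek, Plvap and Lyve1 per 100 Cdh5 counts (plus 1, log axis) in each of the 30 libraries by group, with a line at the group median. Sftpc is highest in BALB/c DTC libraries, at 743 to 2695, and Kdr, Calcrl and Tek are higher in the 5 NSG DTC libraries than in the 5 NSG macro-mets.

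The other vessel genes differed in how far tumours already held them. Plvap, the diaphragm protein of fenestrae and caveolae, was at 3.91, 3.51, 2.78, 5.59 and 1.93 TPM in the tumours, 91.2, 41.6, 10.6, 11.6 and 11.1 TPM in the DTC libraries and 8.16, 13.7, 12.5, 17.4 and 33.7 TPM in the macro-mets in BALB/c mice. Plvap in NSG mice was at 1.40, 3.66, 1.98, 0.677 and 1.72 TPM in the tumours, 16.8, 17.8, 7.22, 14.8 and 17.9 TPM in the DTC libraries and 7.62, 11.6, 7.17, 12.7 and 4.01 TPM in the macro-mets. Lung libraries were above the tumours of their strain in every case. Plvap rose in DTC libraries by 3.21 ± 0.55, adjusted p = 3.46e-05, or 1.69 ± 0.42, adjusted p = 0.00229, without the 2 libraries, and 2.80 ± 0.55, adjusted p = 0.000444, in BALB/c and NSG mice. In macro-mets against tumours it rose by 2.16 ± 0.53, adjusted p = 0.00212, and 2.17 ± 0.54, adjusted p = 0.00322. Outside the lung-rich libraries its highest BALB/c level was in macro-met replicate 5, at 33.7 TPM.

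Egfl7, a secreted matrix protein of vessels, was present in all libraries. Egfl7 in BALB/c mice was at 5.77, 3.60, 5.26, 4.59 and 3.35 TPM in the tumours, 34.0, 17.9, 10.7, 11.1 and 8.22 TPM in the DTC libraries and 3.85, 4.09, 5.91, 5.64 and 5.77 TPM in the macro-mets. Egfl7 in NSG mice was at 4.52, 4.22, 5.84, 3.93 and 4.68 TPM in the tumours, 7.88, 8.43, 3.86, 8.05 and 8.80 TPM in the DTC libraries and 6.05, 6.27, 11.1, 8.02 and 5.60 TPM in the macro-mets. The BALB/c DTC libraries stood above both other BALB/c groups, and the NSG groups overlapped. Egfl7 rose in BALB/c DTC libraries by 1.86 ± 0.29, adjusted p = 6.59e-06, and fell in macro-mets, at -1.80 ± 0.29, adjusted p = 1.52e-05, and without the 2 libraries the values were 1.19 ± 0.25, adjusted p = 0.00047, and -1.14 ± 0.25, adjusted p = 0.00124. In NSG DTC libraries the value was 0.45 ± 0.28, adjusted p = 0.258. The strain difference was itself called, at -1.41 ± 0.40, adjusted p = 0.00633, in DTC against tumour, and was not called without the 2 libraries (-0.76 ± 0.34, adjusted p = 0.0845).

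Vwf, the clotting factor stored in endothelial granules, was at 0.0429, 0.183, 0.0412, 0.428 and 0.0562 TPM in the tumours, 6.03, 2.21, 0.183, 0.432 and 0.845 TPM in the DTC libraries and 0.307, 0.0965, 0.428, 1.02 and 0.650 TPM in the macro-mets in BALB/c mice. Vwf in NSG mice was at 0.0161, 0.232, 0.459, 0.120 and 0.0453 TPM in the tumours, 1.23, 1.23, 1.11, 1.13 and 1.12 TPM in the DTC libraries and 0.271, 1.26, 1.10, 0.629 and 0.347 TPM in the macro-mets. NSG DTC libraries were tightly grouped and above all NSG tumours, whereas BALB/c tumours and DTC libraries overlapped. Vwf rose by 3.65 ± 0.86, adjusted p = 0.00129, and 2.5 ± 0.83, adjusted p = 0.0256, in DTC libraries of BALB/c and NSG mice. The BALB/c call was lost without the 2 lung-rich libraries (1.72 ± 0.79, adjusted p = 0.0885), and the NSG call was lost without NSG tumour replicate 1, 4 or 5, with 2.20 as the lowest value. Emcn, the sialomucin endomucin, never passed 1.88 TPM, and rose by 2.83 ± 1.00, adjusted p = 0.0233, in BALB/c DTC libraries but was not called without the 2 libraries (0.56 ± 1.04, adjusted p = 0.695). Its NSG value was 2.21 ± 0.99, adjusted p = 0.1.

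Lyve1, a hyaluronan receptor of lymphatic vessels that some lung capillaries and macrophages also make, was at 0.222, 0.301, 0.0504, 0.652 and 0.247 TPM in the tumours, 17.4, 7.09, 0.540, 2.42 and 0.991 TPM in the DTC libraries and 0.508, 0.410, 2.59, 2.14 and 1.33 TPM in the macro-mets in BALB/c mice. Lyve1 in NSG mice was at 0.243, 0.748, 0.413, 0.475 and 0.422 TPM in the tumours, 10.2, 7.47, 8.56, 6.44 and 9.22 TPM in the DTC libraries and 4.49, 5.73, 7.75, 4.74 and 1.76 TPM in the macro-mets. NSG lung libraries lay at 1.76 to 10.2 TPM, above all tumours. Lyve1 rose in DTC libraries by 4.23 ± 0.72, adjusted p = 3.41e-05, or 2.19 ± 0.56, adjusted p = 0.00294, without the 2 libraries, and 4.00 ± 0.71, adjusted p = 0.000156, in BALB/c and NSG mice. The difference between NSG and BALB/c DTC libraries was not called (0.36 ± 0.61, adjusted p = 0.686), but without the 2 libraries NSG was higher by 2.38 ± 0.60, adjusted p = 0.00226. Those 2 held the highest BALB/c levels of Lyve1 and no NSG library was dropped, so the second value leans toward NSG and does not settle a strain difference.

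The strains were compared at each stage and through the difference of their changes. Tumours were taken at days 21 and 22 in BALB/c and at day 10 in NSG mice. Strain and tumour day therefore cannot be told apart there, nor in the strain difference in DTC against tumour. Macro-met days differed as well, 21 and 23 in BALB/c and 19 and 20 in NSG mice, so the same holds for strain comparisons that use macro-mets. In tumours Rtkn2 was higher and Cyp2f2 and Foxj1 were lower in NSG among the epithelium members, and Robo4 was higher and Kdr lower among the endothelium members, where 12.6% of all genes were higher and 11.0% lower. In DTC libraries 15 of 17 epithelium members were lower in NSG (median -4.05), all but Abca3 and Rtkn2, and Cldn5, Egfl7 and Plvap were lower among the endothelium members (median -1.35). Over all genes 21.7% were higher and 17.1% lower. Without BALB/c DTC replicates 1 and 2, 6 epithelium members were lower (median -1.09), and the endothelium median turned to 0.96, with Calcrl and Lyve1 higher and Egfl7 lower, where 19.5% of all genes were higher and 16.0% lower. That fit drops the highest BALB/c libraries and none from NSG mice, so its values lean toward NSG and do not settle a strain difference. Sftpc was lower in NSG DTC libraries, with a log2 fold change of -5.43 ± 1.13, adjusted p = 0.00039, which without the 2 libraries was -2.25 ± 0.92, adjusted p = 0.0596. Scgb1a1 was lower as well, at -7.08 ± 1.15, adjusted p = 2.14e-05, and at -4.58 ± 0.98, adjusted p = 0.000514, without them.

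In macro-mets few genes of any kind differed between the strains by the test, 0.760% higher and 1.88% lower in NSG. Foxj1 alone of the 17 epithelium members was called, lower in NSG mice, and the median was -0.30. No endothelium member was called by edgeR (median 0.51), 2 had an unadjusted p under 0.05, both higher in NSG mice, and DESeq2 and limma-voom called 0. The difference between the strains in DTC against tumour was negative and called for Ager, Slc34a2, Napsa, Rtkn2 and Abca3 among the epithelium members and for Cldn5, Robo4 and Egfl7 among the endothelium members, where 18.4% of all genes were called higher and 15.0% lower. Without the 2 lung-rich libraries that count was 1 epithelium member, and for the endothelium Kdr and Calcrl were positive and Robo4 negative. In that fit 18.5% of all genes were called higher and 15.2% lower. In a separate fit, the 4 libraries with the fewest genes were left out and the lung-rich ones kept. There the calls for Slc34a2 (-3.86), Robo4 (-2.91) and Cldn5 (-3.37) were lost. In macro-met against DTC the difference was positive and called for 10 epithelium members (median 4.00) and for Cldn5 and Egfl7, where 11.6% of all genes were called higher and 16.6% lower. Those 10 fell to 4 without BALB/c DTC replicate 1 and to 2 without both lung-rich libraries, where Cldn5 was not called either (0.58 ± 0.76, adjusted p = 0.638). Comparisons that share a group share its libraries, so these values are not independent of one another.

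Epithelium and endothelium did not move in fixed proportion. The 16 epithelium members without Abca3, Aqp5 and Foxj1 were 1.57 to 6.30 times the summed endothelium members in BALB/c DTC libraries, 0.269 to 0.868 times in NSG DTC libraries, 0.776 to 1.48 times in BALB/c macro-mets and 0.484 to 1.73 times in NSG macro-mets. The endothelium sums were 80.7 to 113 CPM in NSG DTC libraries and 661, 252, 52.2, 64.1 and 49.2 CPM in BALB/c DTC libraries. Outside the 2 lung-rich libraries, then, NSG DTC libraries held more endothelial and less epithelial signal than BALB/c DTC libraries. The endothelial part of this rests on leaving out those 2, the highest of their group. Leukocyte markers moved in part with the lung-rich libraries, at 155, 48.9, 22.2, 72.5 and 19.5 CPM over BALB/c DTC replicates 1 to 5, after a sort for CD45-negative cells. Red cell genes were at 17.7 to 67.8 CPM in NSG DTC libraries and 4.21 to 10.5 CPM in BALB/c DTC libraries. The part of either in the member values was not tested.

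Other genes of the same cell types, from lists chosen with earlier results of these data known, were counted in the same fit. In BALB/c DTC against tumour libraries, 26 of 35 other lung epithelium genes rose (median 1.70) and 31 of 46 other endothelium genes rose and 3 fell (median 2.65). Over all genes 20.4% rose and 21.0% fell in that comparison. Without BALB/c DTC replicates 1 and 2, 14 of 36 such epithelium genes rose and 1 fell (median 0.87), and 18 of 48 endothelium genes rose and 3 fell (median 1.15), beside the same 17.3% and 18.9% of all genes. In NSG mice 7 of 35 such epithelium genes rose and 3 fell (median 0.84), near the 16.0% of all genes that rose and 9.55% that fell. There 24 of 46 such endothelium genes rose and 4 fell (median 2.46). Some of these genes were abundant in tumours too. Emp2, a membrane protein listed for type 1 cells, had group medians of 174.1 TPM in BALB/c tumours and 240.9 TPM in BALB/c DTC, and Ctsh, the protease cathepsin H listed for type 2 cells, of 141.8 and 261.1 TPM. Fasn, the fatty acid synthase, had group medians of 107.5 TPM in BALB/c tumours and 159.5 TPM in BALB/c DTC, and Krt7, a keratin of simple epithelia, of 222.5 and 248.9 TPM. Ephb4, an ephrin receptor of veins, had medians of 155.3 and 116.9 TPM and Eng, the endoglin co-receptor, of 96.6 and 117.8 TPM. Lung fibroblast genes also moved, with 7 of 14 higher and 2 lower in BALB/c DTC libraries, 6 higher and 3 lower without the 2 lung-rich ones, and 8 higher and 1 lower in NSG DTC libraries. Of 14 leukocyte genes 2 rose in each strain.

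Genes most like the summed members over the 20 lung libraries were found by Pearson's r of log2 CPM, as a description with no p. The 20 points include the 2 lung-rich libraries and differ in depth. The epithelium sum used here held all 19 members, Abca3, Aqp5 and Foxj1 among them. For epithelium the closest were Tmem252 (r = 0.965), Sec14l3 (0.936), Lyz1 (0.934), Inmt (0.931) and Dram1 (0.919), followed by Chil1, Tspan8, Tspan18, Smagp and Hdc. Without BALB/c DTC replicates 1 and 2, r over 18 libraries was 0.755 for Tmem252, 0.882 for Lyz1 and 0.066 for Tspan18. Abca3, Aqp5 and Foxj1 made up 50.4% to 92.1% of the epithelium sum in these 18 libraries, against 4.91% and 10.3% in replicates 1 and 2. The epithelium values over 18 libraries thus follow a sum made up mostly of those genes and cannot be set beside the endothelium values below. For endothelium the closest were S1pr1 (0.978), Tspan7 (0.976), Acer2 (0.976), Aldh1a1 (0.973) and Thbd (0.969), followed by Clec14a, Slc43a3, Icam2, Kit and Rnf144a. These 10 stayed at 0.868 to 0.974 without the 2 libraries. Among the lists used here, Aldh1a1 is listed for club cells and Inmt for lung fibroblasts, so likeness to a sum does not name a cell type. S1pr1, Tspan7, Thbd, Clec14a, Icam2 and Kit are listed for endothelium, and Sec14l3 and Dram1 for lung epithelium.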

How the data were processed

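Gene counts and TPM values were deposited by the authors as tables of the whole series, with 49315 genes and 30 libraries, and every column was used. Per the submitters' processing notes, Trimmomatic 0.36, STAR 2.5.2b and the GRCm38/mm10 build were used; the counting tool, its strand setting and the annotation are not given in the sources used here, so genes that overlap an antisense gene are uncertain. The deposited counts are whole numbers per gene with no normalization, and the deposited TPM values are scaled by transcript length and library total. Replicates are numbered in accession order and pair no libraries.

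The members and all lists were chosen with earlier results of these data known. edgeR 4.0.16 in R 4.3.3 fitted the counts of all 30 libraries (6 groups, filterByExpr, TMM, robust quasi-likelihood test), which left 17774 genes and 24 residual degrees of freedom, with a median biological coefficient of variation of 0.269. P-values were adjusted by Benjamini-Hochberg over all genes tested and called under 0.05 in each of 11 comparisons. Levels are the authors' TPM, and summed levels are CPM, counts scaled to the library total; no list was tested. Where all libraries of a group were at 0, folds are bounds against 3 counts over that group, which cover counting error only. Every library's value is given for 1 gene per cell type or role and for members with a tumour median of at least 1 TPM or called against their list, with Robo4 given in tumours only. Others are given by range, by group median or by fold change alone, so an overlap between groups is not always shown for them. Alternatives were DESeq2 1.42.0, its size factors in edgeR, limma-voom (limma 3.58.1), log2(TPM + 1) and log2(TPM + 0.1) with limma, no filter, offsets for GC content and length, only the libraries compared, an adjusted p under 0.01, each replicate left out and the 2 lung-rich libraries left out. The fit without the 4 libraries with the fewest genes, and the sums without Abca3, Aqp5 and Foxj1, were added after seeing the data. No library pair held identical counts.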

Additional observations from a re-analysis of the deposited data

Results flagged for a closer look

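Single libraries stood far from the other 4 of their group in 8 of 84 checks of member levels. The cutoff flags about 5% of groups only for normal, independent values. CPM need not be normal and the checks share libraries and genes, so 5% is not their chance rate. BALB/c tumour replicate 4 was high in endothelium, with a summed endothelium level of 37.23 CPM against 9.96 to 14.4 CPM in the other 4, Pecam1 at 7.414 CPM against 1.10 to 2.41 CPM and Cdh5 at 1.911 CPM against 0.244 to 0.714 CPM. That library also had the fewest genes detected, 17517, and skeletal muscle markers at 859.8 CPM, and the part of these in its endothelium level was not tested.

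The secretoglobin Scgb1a1 stood apart in 4 groups. It was at 242.7 CPM in BALB/c DTC replicate 1 against 3.30 to 54.3 CPM, at 10.72 CPM in BALB/c macro-met replicate 2 against 0.464 to 1.81 CPM, at 3.457 CPM in NSG macro-met replicate 3 against 0.397 to 1.10 CPM, and at 0.09749 CPM in NSG tumour replicate 5 against at most 0.0245 CPM. Sftpc was at 35.89 CPM in NSG DTC replicate 3 against 7.51 to 14.9 CPM.

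The change from one stage to the next differed between strains for several members by the edgeR test of the difference, NSG minus BALB/c. Tumour and macro-met days also differed between the strains, so strain and day cannot be told apart in these values. In DTC against tumour it was -3.82 for Cldn5 (adjusted p = 0.0285) and -4.15 for Ager (adjusted p = 0.00226), and neither was called without the 2 lung-rich BALB/c DTC libraries, at -1.91 and -1.44. The Cldn5 call was also lost without BALB/c DTC replicate 1, at -2.71, and without any of 5 other single libraries. In macro-met against DTC it was 4.33 for Sftpb (adjusted p = 0.0219), 4.66 for Sftpc (adjusted p = 0.0148), 2.51 for Cldn5 (adjusted p = 0.0331), 4.13 for Ager (adjusted p = 0.00187) and 5.94 for Scgb1a1 (adjusted p = 0.00206). Without BALB/c DTC replicate 1 the calls for Sftpb, Sftpc and Cldn5 were lost, at 3.03, 3.44 and 1.38, and Ager and Scgb1a1 were at 3.00 and 4.38, still called. Without both lung-rich libraries only Scgb1a1 of these 5 was called, at 3.44 (adjusted p = 0.0393), and Ager was at 1.36 (adjusted p = 0.156).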

How the results depend on the processing

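Counts of members called are given here as epithelium or endothelium members called in either direction. Within a factor of 1.5 of the counts in the report, no alternative moved the epithelium count in BALB/c DTC against tumour libraries or the endothelium count in NSG DTC against tumour libraries. DESeq2's size factors changed no count beyond that factor.

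Leaving out the 2 lung-rich BALB/c DTC libraries gave 7 endothelium members in BALB/c DTC against tumour, 2 epithelium and 1 endothelium in BALB/c macro-met against DTC, 5 epithelium between tumours, 6 epithelium between DTC libraries and 1 endothelium between macro-mets. For the strain difference it gave 1 epithelium member in DTC against tumour and 2 in macro-met against DTC. It also turned 5 called values round: Napsa in BALB/c DTC against tumour to -0.43, Esam in BALB/c macro-met against DTC to 0.56, Plvap and Cldn18 in NSG against BALB/c DTC to 0.14 and 0.34, and the Napsa strain difference in DTC against tumour to 0.43. This alternative has 3 BALB/c DTC libraries and tested 19038 genes, against 17774 in the reported fit.

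With limma-voom the counts were 2 epithelium and 3 endothelium members in BALB/c macro-met against tumour, 4 epithelium in NSG DTC against tumour, 1 epithelium in NSG macro-met against DTC, 4 epithelium in NSG macro-met against tumour and 0 endothelium between tumours. Its strain differences were 2 epithelium and 1 endothelium in DTC against tumour, and 1 of each in macro-met against DTC. On log2(TPM + 1) they were 6 epithelium and 3 endothelium in BALB/c macro-met against tumour, 1 epithelium in NSG macro-met against DTC and 0 endothelium between tumours. The strain differences on that scale were 1 endothelium in DTC against tumour and 4 epithelium and 1 endothelium in macro-met against DTC. On log2(TPM + 0.1) there were 7 endothelium in BALB/c macro-met against DTC, 1 epithelium in NSG macro-met against DTC, 0 endothelium between tumours and 1 between DTC libraries, with strain differences of 1 endothelium in DTC against tumour and 5 epithelium and 1 endothelium in macro-met against DTC. The cause was not tested.

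DESeq2 called 5 epithelium members between tumours and 8 for the strain difference in DTC against tumour. Without the low-count filter there was 1 epithelium member in NSG macro-met against DTC and 1 endothelium member between tumours, with strain differences of 3 epithelium in DTC against tumour and 1 endothelium in macro-met against DTC. GC and length offsets gave 1 endothelium member between DTC libraries, 3 epithelium for the strain difference in DTC against tumour and 1 endothelium for that in macro-met against DTC. A fit of only the libraries compared gave 0 endothelium members between tumours and 1 between macro-mets. At an adjusted p under 0.01 there were 7 endothelium in BALB/c macro-met against DTC, 1 epithelium and 1 endothelium in NSG macro-met against DTC, 1 endothelium between tumours and 1 between DTC libraries, with strain differences of 1 epithelium in DTC against tumour and 4 epithelium and 1 endothelium in macro-met against DTC. Without the 4 libraries with the fewest genes there were 10 endothelium members in BALB/c and 11 in NSG macro-met against tumour, 1 epithelium in NSG macro-met against DTC, 0 endothelium between tumours, 7 between DTC libraries and 1 for the strain difference in DTC against tumour.

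Leaving out single libraries gave 4 to 12 endothelium members in BALB/c macro-met against DTC (lowest without BALB/c DTC replicate 1), 4 to 9 in BALB/c macro-met against tumour (highest without BALB/c tumour replicate 4), 1 to 2 epithelium in NSG macro-met against DTC and 5 to 11 endothelium in NSG macro-met against tumour (highest without NSG tumour replicate 3). Between tumours it gave 3 to 5 epithelium (highest without NSG tumour replicate 3) and 1 to 2 endothelium, and between DTC libraries 1 to 5 endothelium (lowest without BALB/c DTC replicate 1, highest without replicate 3). For the strain difference it gave 2 to 7 epithelium in DTC against tumour and 4 to 12 epithelium in macro-met against DTC, both lowest without BALB/c DTC replicate 1. It gave 1 to 2 endothelium in macro-met against DTC, with 1 in 11 of the 20 fits.

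Of 158 called member values, 158 kept their call with DESeq2 and 158 with its size factors, 142 without the filter, 101 with limma-voom, 119 and 128 on the TPM scales and 96 without the lung-rich libraries. Members under 1 TPM rest on few counts, so their values are imprecise. No paired analysis was possible because the replicate numbers follow accession order and the labels tie no library of one group to one of another.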
